A study of Homo sapiens with 4 samples.

Results

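The miR-148 and miR-152 family is a group of 3 human microRNAs (miRNAs) that share a seed, the stretch of bases 2 to 8 of the mature strand with which a miRNA pairs with messenger RNAs. Its genes MIR148A, MIR148B and MIR152 were found by symbol, through the Ensembl gene identifier, and all 3 were among the 7062 small RNA features listed for these cells. The counts came from small RNA sequencing of HEK293T, a line derived from human embryonic kidney. The cells had been transiently transfected with 1.5 µg of plasmid per well, which encoded an α-amanitin-resistant RPB1, the catalytic large subunit of RNA polymerase II, with a C-terminal domain (CTD) of 52 heptad repeats. Selection of both groups in 2.5 µg/ml α-amanitin, which inhibits the endogenous polymerase, began a day later and lasted 72 h. The groups differed in the CTD alone, which was wild type in 52X WT and carried T4A, the replacement of threonine by alanine at position 4 of the heptad, in 52X T4A. Each group had 2 libraries, described as biological replicates, and a library summed the RNA of the pool of cells that survived selection, so fewer cells carrying an RNA and less of it per cell cannot be told apart. The comparison asks how the level of each family member differs between cells that transcribe with a T4A CTD and cells that transcribe with a wild-type CTD.

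A miRNA gene is transcribed by RNA polymerase II into a long primary transcript. The nuclease Drosha cuts a hairpin from it in the nucleus, Dicer cuts the hairpin in the cytoplasm, and a strand of the resulting duplex is loaded into an Argonaute protein. The loaded complex pairs with partly complementary sites in messenger RNAs, mostly through the seed, and lowers their translation and stability. Members of a family with the same seed have largely overlapping target sets, and members of this family are known to repress the DNA methyltransferase gene DNMT1. A miRNA in an intron of a protein-coding gene is usually made from the transcript of its host, while others have transcripts of their own.

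The mature 3p strands are shown first because their shared seed defines the family. They are written 5′ to 3′ from RefSeq (GRCh38.p14), with the seed in capitals. MIR148A is at chr7:25949919-25949986 on the minus strand, MIR148B at chr12:54337216-54337314 on the plus strand and MIR152 at chr17:48037161-48037247 on the minus strand.
hsa-miR-148a-3p: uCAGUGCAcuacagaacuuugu
hsa-miR-148b-3p: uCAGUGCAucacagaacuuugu
hsa-miR-152-3p: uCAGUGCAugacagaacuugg

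The seed CAGUGCA pairs with UGCACUG in a target. Of the 2545 mature human sequences in the RefSeq table, 3 carried it at bases 2 to 8, namely these strands. Counted from the 5′ end, hsa-miR-148b-3p differed from hsa-miR-148a-3p by C9U and U10C, that is at 2 of 22 positions. Against hsa-miR-148a-3p, hsa-miR-152-3p differed by C9U, U10G and U20G over 21 compared positions. The differences thus began just after the seed.

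The other strands of the same hairpins, of which RefSeq gave those of MIR148B and MIR152, have different seeds, again in capitals.
hsa-miR-148b-5p: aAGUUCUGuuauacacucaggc
hsa-miR-152-5p: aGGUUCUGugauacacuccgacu

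The deposited counts were summed over each annotated hairpin and do not separate the arms. The hairpins are shown with the 3p strand in capitals, since these are the intervals over which reads were counted.
MIR148A: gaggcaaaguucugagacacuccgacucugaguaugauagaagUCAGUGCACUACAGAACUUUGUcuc
MIR148B: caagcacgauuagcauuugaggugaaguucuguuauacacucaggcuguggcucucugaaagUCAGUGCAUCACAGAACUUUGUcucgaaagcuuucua
MIR152: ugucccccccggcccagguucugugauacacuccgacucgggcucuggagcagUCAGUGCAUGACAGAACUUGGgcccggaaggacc

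All 3 genes lay in introns, on the strand of the host. In GENCODE v44lift37, MIR148B (ENSG00000199122.3) lies in intron 1 of the canonical transcript of COPZ1, and MIR152 (ENSG00000207947.3) in intron 1 of that of COPZ2. The hosts are paralogs that encode zeta subunits of coatomer, the coat of vesicles that return proteins from the Golgi to the endoplasmic reticulum. MIR148B also lies in the long noncoding RNA gene ENSG00000258344. MIR148A (ENSG00000199085.3) overlaps no protein-coding gene and lies in an intron of the long noncoding RNA gene ENSG00000270933. None of the 3 hairpins overlapped an exon of another gene.

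MIR148B and MIR152 also lay on chromosomes that carry a HOX cluster, the gene arrays that pattern the body axis. The nearest HOX gene was HOXC4, at 281 kb, for MIR148B and HOXB1, at 491 kb, for MIR152. Among the listed small RNAs, the closest to MIR148B was the 7SL pseudogene RN7SL744P at 7.30 kb, with 0 to 1 counts per library. The closest to MIR152 was the U6 pseudogene RNU6-1201P at 51.4 kb, with 6 to 7 counts. The closest to MIR148A was a U3 copy (ENSG00000202233.2) at 685 kb, with 23 to 47 counts. No member had an abundant listed neighbour.

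The libraries held 16180790 to 27370127 counts assigned to features, and 1480 features passed the filter on low counts, all 3 members among them. Of the miRNAs typical of HEK293T, MIR10A, MIR10B, MIR17, MIR20A, MIR92A1, MIR196A1 and MIR196A2 had summed levels of 206282 and 228263 CPM in 52X T4A, against 262592 and 235976 CPM in 52X WT. MIR10A and MIR10B made up most of these sums, with 98253 and 94915 CPM in 52X T4A replicate 1. The sums therefore say little about the other markers. CPM are counts scaled to a library of 1000000 counts, here after correction of library sizes with TMM factors. The 15 miRNAs listed as typical of liver, blood, muscle and neurons summed to 134 and 132 CPM in 52X T4A, against 105 and 90.4 CPM in 52X WT, and 13 of their 16 features stayed at or below 100 counts in every library. The exceptions went in opposite directions. The muscle copies MIR1-1 and MIR1-2 were each higher in both 52X T4A libraries, MIR1-1 with 46.6 and 39.9 CPM in 52X T4A but 15.1 and 16.4 CPM in 52X WT. The 2 copies had near-equal levels in every library and cannot be told apart. The same reads may thus enter the sum at both. MIR486-1 of red blood cells was lower, at 29.4 and 39.9 CPM in 52X T4A but 60.7 and 48.2 CPM in 52X WT. Without the MIR1 copies the sum was 40.4 and 52.8 CPM in 52X T4A but 74.7 and 57.7 CPM in 52X WT. Those 2 copies thus carried the higher sum, and MIR486-1 made up most of the rest. The scarce muscle markers MIR133A1, MIR133A2 and MIR206, at no more than 1.89 CPM, were also higher in both 52X T4A libraries.

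MIR148A was the dominant member and among the small RNAs with the most counts in these cells. It had 2231858 and 2776249 counts in 52X T4A replicates 1 and 2, and 998305 and 2290848 counts in 52X WT replicates 1 and 2. These were 13.8%, 10.1%, 6.16% and 12.0% of all counts in a library, so that in 52X T4A replicate 1 and 52X WT replicate 2 MIR148A ranked 1 among all features, and in the remaining libraries it ranked 3. The Wilson 95% interval of the lowest share ran from 6.15% to 6.18%. Such intervals cover counting error only and were far narrower than the gap between replicates.

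On the CPM scale MIR148A stood at 140975 and 87908 in 52X T4A, and at 68396 and 121660 in 52X WT. The highest and the lowest library thus belonged to different groups, and the groups overlapped. The larger replicate was 1.60 times the smaller in 52X T4A and 1.78 times the smaller in 52X WT. The group means were 114441 ± 37524 CPM in 52X T4A against 95028 ± 37664 CPM in 52X WT (SD, n = 2).

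MIR148B, the member of the COPZ1 intron, was far steadier between replicates. It received 145579 and 322427 counts in 52X T4A against 173651 and 229249 in 52X WT. After scaling, these gave 9195 and 10209 CPM in 52X T4A, and 11897 and 12175 CPM in 52X WT. Both 52X T4A libraries lay below both 52X WT libraries. The means were 9702 ± 717 CPM and 12036 ± 196 CPM (SD, n = 2), a ratio of 0.806. MIR148B ranked between 12 and 20 among the miRNAs of a library. With library size alone in place of TMM factors the groups overlapped, since MIR148B took 0.900% and 1.18% of all counts in 52X T4A and 1.07% and 1.20% in 52X WT.

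MIR152, the member of the COPZ2 intron, was the member with the fewest counts, 7575 and 15729 counts in 52X T4A and 5015 and 6409 counts in 52X WT. It stood at 478 and 498 CPM in 52X T4A, and at 344 and 340 CPM in 52X WT. The replicates of a group lay close together, and the groups did not overlap. Means were 488 ± 13.8 CPM in 52X T4A against 342 ± 2.28 CPM in 52X WT (SD, n = 2), a ratio of 1.43. Unlike for MIR148B, the separation was also there without scaling factors, at 0.0468% and 0.0575% of all counts in 52X T4A against 0.0310% and 0.0335% in 52X WT. The muscle copies MIR1-1 and MIR1-2 were likewise higher in both 52X T4A libraries. So were the scarce muscle markers MIR133A1, MIR133A2 and MIR206. The sum of all markers of other sources but the MIR1 copies was lower, at 40.4 and 52.8 CPM in 52X T4A. In 52X WT it was 74.7 and 57.7 CPM. MIR486-1 made up most of that sum in every library. The part of other cell sources in the MIR152 values was not tested.

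**Figure D1:**
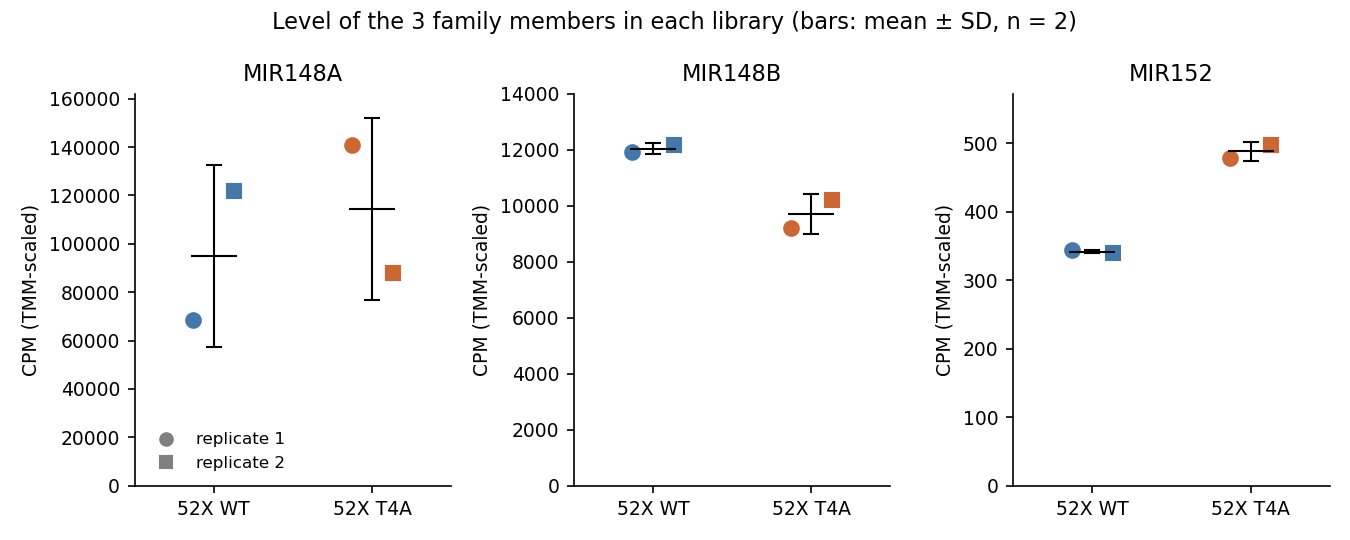
Level of each family member in CPM (vertical axes, starting at 0) in the 2 libraries of 52X WT and the 2 of 52X T4A, with circles for replicate 1, squares for replicate 2, and bars for the mean ± SD. The replicates of MIR148A spread over 68396 to 140975 CPM with overlapping groups, whereas for MIR148B (9195 to 12175 CPM) and MIR152 (340 to 498 CPM) the groups are apart.

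The spread between replicates was set beside that of all tested features. The log2 ratio between replicates of MIR148A had a size of 0.68 between 52X T4A libraries, and 0.83 between 52X WT libraries, where the medians over tested features were 0.31 and 0.43. For MIR148B it was 0.15 and 0.03, and for MIR152 0.06 and 0.01. In 52X WT, 23.9% of the tested features differed more between replicates than MIR148A did, 96.1% more than MIR148B and 98.2% more than MIR152. The dominant member was hence the least repeatable of the 3.

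To compare levels between genes, CPM were divided by the length of the hairpin in kilobases, with lengths of 68, 99 and 87 bases for MIR148A, MIR148B and MIR152. On this scale, as in plain counts, the order MIR148A, MIR148B, MIR152 held in each of the 4 libraries. Per length, MIR148A exceeded MIR148B by 8.37 to 22.3 times, and MIR148B exceeded MIR152 by 16.9 to 31.4 times. Without the division there were 6.52 to 17.4 counts of MIR148B per 100 of MIR148A, and 2.80 to 5.20 counts of MIR152 per 100 of MIR148B. Whether counts grow with hairpin length was not tested, so the size of each gap depends on the division. These gaps between neighbours in the order were well beyond the spread between replicates of any member.

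Together the 3 genes held 14.7% and 11.4% of all counts in 52X T4A, against 7.27% and 13.2% in 52X WT. The family sum followed MIR148A, at 124632 ± 36794 CPM in 52X T4A against 107406 ± 37858 CPM in 52X WT (SD, n = 2), and the groups overlapped (exact two-sided permutation test, p = 0.667). With 2 libraries a group this test cannot give a p below 0.333. MIR148A made up 93.6% and 89.1% of the family counts in 52X T4A and 84.8% and 90.7% in 52X WT (exact permutation p = 0.667).

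The change in each member was then tested with the quasi-likelihood test of edgeR on all 1480 features, where a call needed a Benjamini-Hochberg adjusted p (FDR) below 0.05 and a fold change above 1.5. None of the 3 members was called, and over all features 2, or 0.135%, were called, with 0.0676% in each direction. MIR148A had a log2 fold change (52X T4A over 52X WT) of 0.27 with a standard error (SE) of 0.30 and an edgeR FDR of 0.747. Its 95% interval, from −0.40 to 0.94, held changes of either direction. MIR148B had a log2 fold change of −0.31 with an SE of 0.18 and an edgeR FDR of 0.521, with a 95% interval from −0.73 to 0.10.

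MIR152 had the largest log2 fold change of the members, 0.51 with an SE of 0.22, and an edgeR FDR of 0.460. Its unadjusted edgeR p of 0.0436 was below 0.05, as was that of 10.3% of the tested features (3.99% with a higher level in 52X T4A, as for MIR152), and its unadjusted 95% interval ran from 0.02 to 1.01. Groups did not overlap in CPM for MIR148B and MIR152, 2 of 3 members, while 40.1% of all tested features showed no overlap (18.9% with 52X T4A the higher group). The median log2 fold change of the 3 members was 0.27, against −0.02 over 621 tested miRNAs and −0.05 over all tested features. With 3 members this median is the value of MIR148A, whose 95% interval held changes of either direction. It therefore does not show a shift of the family.

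**Figure D2:**
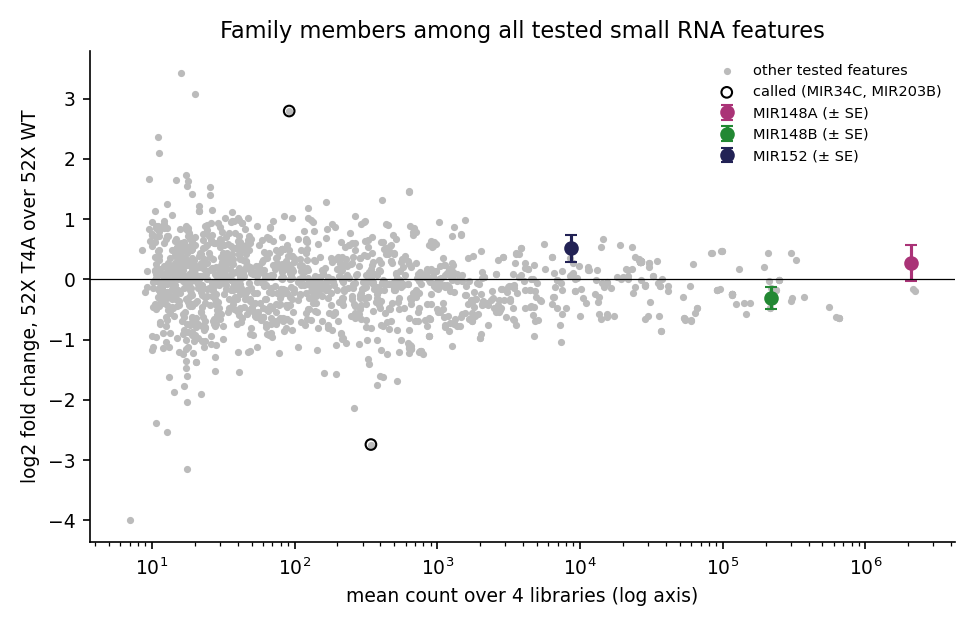
Log2 fold change (52X T4A over 52X WT, vertical axis) against the mean count over 4 libraries (horizontal log axis) for the 1480 tested features in grey, with the 2 called features circled and the members in colour with ± SE. The members lie at 0.27 (MIR148A), −0.31 (MIR148B) and 0.51 (MIR152), and none of them is circled.

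Whether members differed from each other in their change was asked from their ratios within a library, in which any scaling cancels. Per 100 counts of MIR148B there were 5.20 and 4.88 counts of MIR152 in 52X T4A, but 2.89 and 2.80 in 52X WT. The 2 members of the coatomer gene introns thus stood in a higher MIR152 to MIR148B ratio in both 52X T4A libraries. The mean log2 ratio was −4.31 ± 0.07 in 52X T4A against −5.14 ± 0.03 in 52X WT (SD, n = 2), a difference of 0.83, or 1.77-fold. This difference was many times the pooled SD of 0.05 between replicates, an SD that rests on 2 libraries a group. It combines the opposite shifts of the 2 members given above and is not separate evidence. How many other pairs of miRNAs stand as far apart was not tested. An exact two-sided permutation test gave p = 0.333, the smallest that 2 libraries a group allow, so the difference could not reach significance in that test.

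Ratios that involved MIR148A showed no such separation. Per 100 counts of MIR148A there were 6.52 and 11.6 counts of MIR148B in 52X T4A, and 17.4 and 10.0 in 52X WT. The log2 ratio of MIR148B to MIR148A differed by −0.60 between the groups, which was close to the pooled SD of 0.58 (exact permutation p = 0.667). For MIR152 to MIR148A the difference was 0.23 with a pooled SD of 0.56 (exact permutation p = 0.667). The counts of the members therefore did not keep a fixed ratio, although their mature strands differ at few bases. Whether some reads of a member were counted at another was not tested.

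**Figure D3:**
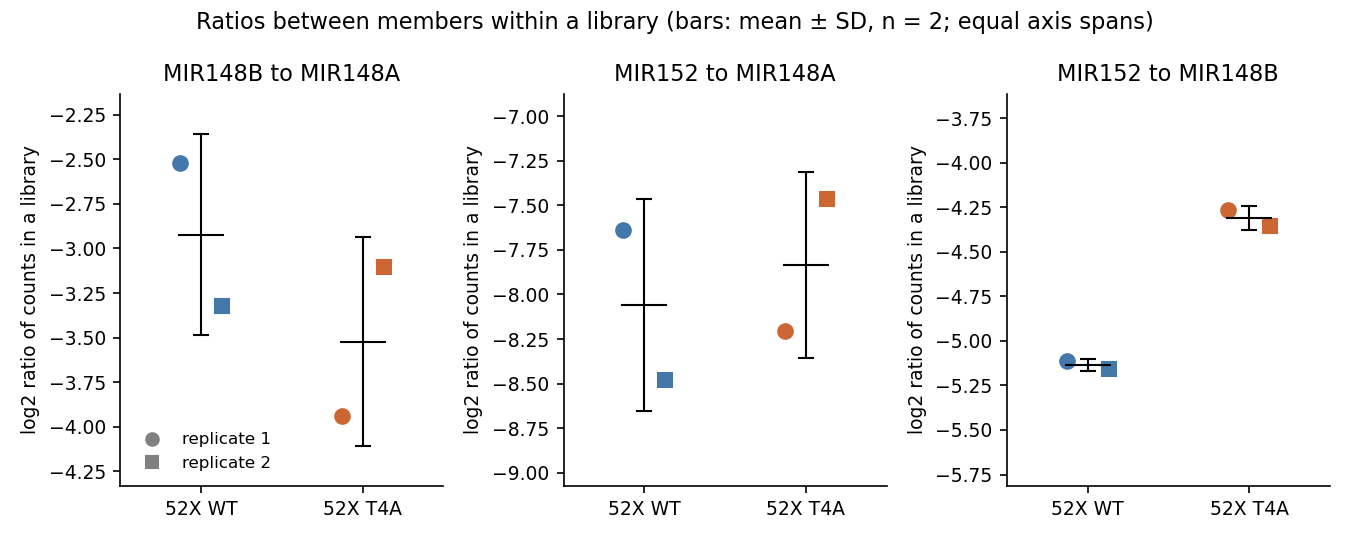
Log2 ratio of the counts of 2 members in the same library (vertical axes, each spanning the same range in log2 units) for 52X WT and 52X T4A, with circles for replicate 1, squares for replicate 2, and bars for the mean ± SD. MIR152 to MIR148B stands at −4.31 for 52X T4A and at −5.14 for 52X WT, with a narrow spread, while both ratios to MIR148A overlap between groups.

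The estimates were followed over 14 other fits, which changed the scaling, the filter, the test or the libraries, and no member was called in any of them. MIR152 stayed above 0 in all 14, from 0.43 to 0.70, and MIR148B below 0 in all 14, from −0.42 to −0.13. MIR148A depended on single libraries. Its log2 fold change was −0.13 without 52X T4A replicate 1 and −0.20 without 52X WT replicate 1, but 0.59 without 52X T4A replicate 2 and 0.75 without 52X WT replicate 2. With all 4 libraries it ran from 0.27 to 0.40. Upper quartile factors and library size alone moved the median of all features from −0.05 to 0.13 and 0.14, so shifts of that size depend on the scaling.

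**Figure D4:**
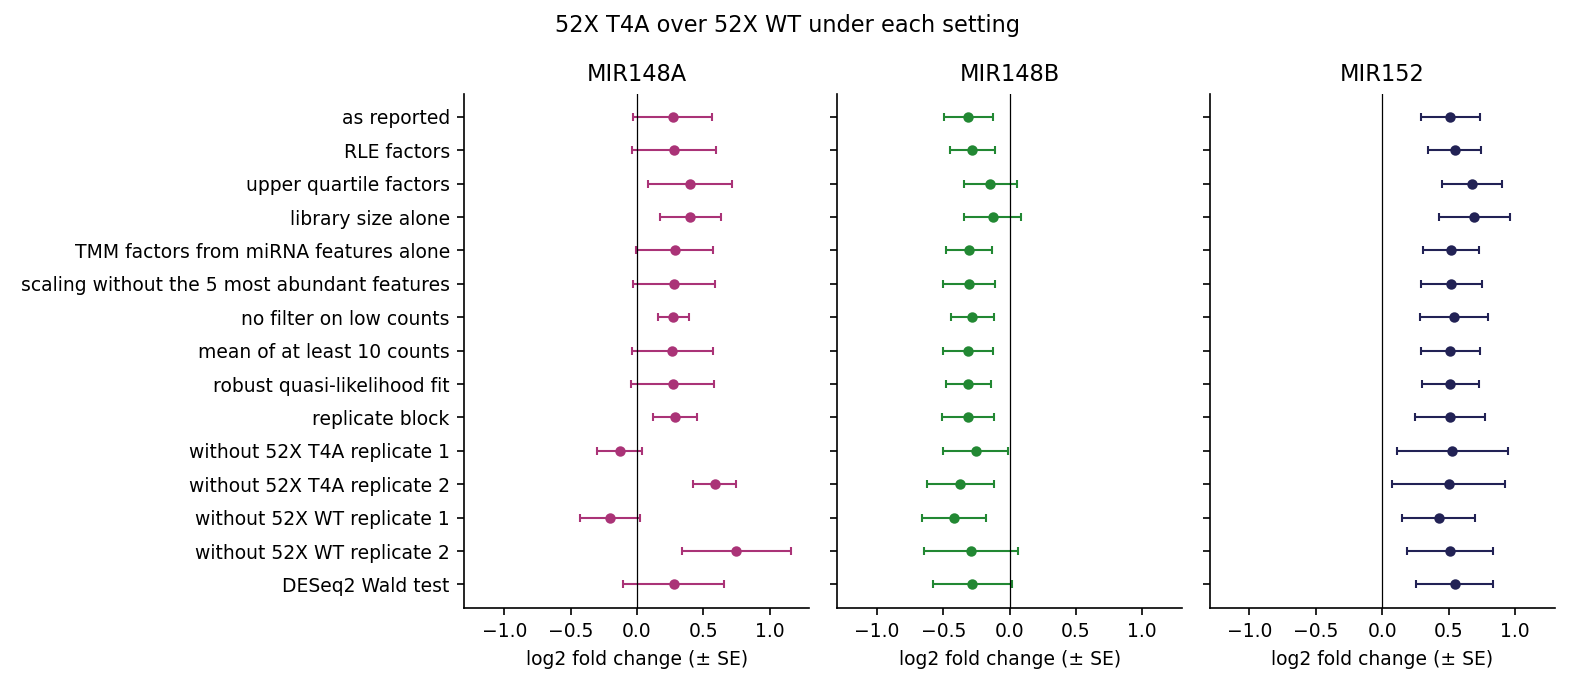
Log2 fold change with ± SE (horizontal axes) of the 3 members under the reported fit and 14 alternatives (rows). MIR152 stays to the right of 0 and MIR148B to the left in all rows, whereas MIR148A turns from 0.27 to −0.13 and −0.20 when a replicate 1 library is left out.

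Since patterns over 4 libraries may be shared with other miRNAs, the 3 tested miRNAs with the most alike course were named for each member, by the root mean square (RMS) difference of log2 CPM after centring. For MIR148A these were MIR151A (RMS 0.08), MIR1288 (RMS 0.10) and MIR4713 (RMS 0.11). MIR151A, which lies in an intron of the kinase gene PTK2, stood at 15074 and 9020 CPM in 52X T4A, and at 6779 and 11107 CPM in 52X WT. It was thus high in the same libraries as MIR148A. MIR1288 and MIR4713 were scarce, at no more than 6.06 and 2.07 CPM.

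For MIR148B the most alike were MIR942 (RMS 0.03), MIR4742 (RMS 0.07) and MIR27B (RMS 0.07), a miRNA of the miR-23, miR-27 and miR-24 cluster. MIR27B stood at 6131 and 7179 CPM in 52X T4A, and at 8263 and 9221 CPM in 52X WT, both 52X T4A libraries being the lower ones. For MIR152 they were MIR192 (RMS 0.05), MIR548AH (RMS 0.07) and MIR641 (RMS 0.08). MIR192, known for its high level in liver and gut, stood at 1325 and 1313 CPM in 52X T4A, and at 876 and 951 CPM in 52X WT, with a log2 fold change of 0.53 ± 0.20 (SE) that was not called (edgeR FDR 0.421). Between members the RMS difference was 0.51 for MIR148A and MIR148B, 0.41 for MIR148A and MIR152, and 0.41 for MIR148B and MIR152. These are descriptions over 4 libraries, and the named miRNAs were picked as the closest among 621 tested.

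The family was set beside a miRNA family that resembles it in sequence. In the miR-130 and miR-301 family, hsa-miR-130b-3p and hsa-miR-301a-3p carry the same 7 bases one position earlier, at bases 1 to 7, so that their own seed is AGUGCAA. The strands below show the shared 7 bases in capitals.
hsa-miR-148a-3p: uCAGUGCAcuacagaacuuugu
hsa-miR-130b-3p: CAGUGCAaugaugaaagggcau
hsa-miR-301a-3p: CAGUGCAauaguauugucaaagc

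None of the 5 genes of that family was called, and 20% were above 0, against 46.1% of all tested features. The other 4 were below 0, and the median log2 fold change of the 5 was −0.33. MIR454 was at 171 ± 19.3 CPM in 52X T4A against 160 ± 14.4 CPM in 52X WT (SD, n = 2), and MIR130B at 141 ± 24.3 and 177 ± 24.1 CPM. MIR301A, which shares the SKA2 host gene with MIR454, was at 24.9 ± 0.268 CPM in 52X T4A against 34.8 ± 6.42 CPM in 52X WT. MIR301B had a log2 fold change of −1.12 ± 0.42 (SE) on 74 to 161 counts per library and was not called (edgeR FDR 0.421).

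The miRNAs within the HOX clusters were also set beside the family. Of these 6, none was called, 2 were above 0 and 4 below, and the median was −0.04. MIR10A and MIR10B, from transcripts of the HOXB and HOXD clusters, had log2 fold changes of −0.20 ± 0.18 and −0.17 ± 0.18 (SE). MIR196B of the HOXA cluster was at 1343 ± 162 CPM in 52X T4A against 1354 ± 135 CPM in 52X WT (SD, n = 2), and MIR196A2 of the HOXC cluster at 1087 ± 105 and 1085 ± 119 CPM. Reads of the MIR10 and MIR196 copies may be shared between them, and their separate levels are uncertain. Their median was closer to 0 than the shift that another scaling gave to the median of all features.

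By kind of transcript, MIR148B and MIR152 were set beside 33 other miRNAs in introns of protein-coding genes. None of the 33 was called, and 14 (42.4%) were above 0 and 19 below, against 46.1% above 0 over all tested features. Some of the 33 are copies with near-equal counts, as MIR103A1 and MIR103A2 are, or share a cluster with MIR25. Such genes are not separate observations. The median log2 fold change of the 33 was −0.13, and they ranged from −0.78 to 1.19. Both members lay inside that range, MIR148B on the lower and MIR152 on the upper side of its median. The member of that list with the most counts was MIR25, from an intron of the replication factor gene MCM7, at 24015 ± 3507 CPM in 52X T4A against 32876 ± 6763 CPM in 52X WT (SD, n = 2). MIR30E, in an intron of the transcription factor gene NFYC, was at 13567 ± 1439 and 17442 ± 441 CPM. MIR103A1 and MIR103A2, in introns of pantothenate kinase genes and with near-equal counts that cannot be told apart, had a log2 fold change of −0.17 each.

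MIR148A was set beside 27 miRNAs from transcripts of their own or of noncoding hosts. None was called, and 7 (25.9%) were above 0 and 20 below, against 46.1% above 0 over all tested features. Some of the 27 belong to the same cluster, as MIR182 and MIR183 do, and are not separate observations. The median log2 fold change of the list was −0.35, with a range from −0.85 to 0.47. MIR148A, at 0.27, lay within that range. Those with the most counts were MIR182, at 17237 ± 3736 CPM in 52X T4A against 12800 ± 62.9 CPM in 52X WT (SD, n = 2), and MIR92A1, made from the host transcript MIR17HG, at 9097 ± 233 and 12718 ± 627 CPM. MIR183, from the same cluster as MIR182, was at 10393 ± 2145 and 9058 ± 666 CPM. MIR21 was at 5944 ± 310 CPM in 52X T4A against 8831 ± 444 CPM in 52X WT, with the smallest FDR of the list (edgeR FDR 0.367).

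**Figure D5:**
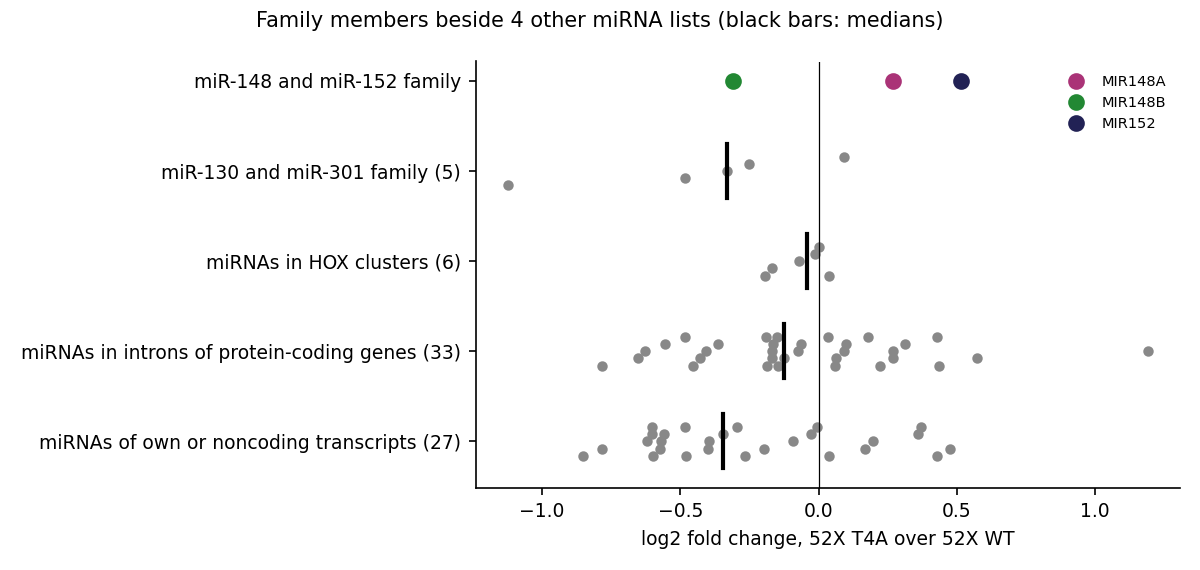
Log2 fold change (52X T4A over 52X WT, horizontal axis) of the 3 members in colour and of each tested gene of 4 other miRNA lists in grey (rows, number of genes in parentheses), with black bars for list medians. The medians stand at −0.33, −0.04, −0.13 and −0.35 from top to bottom, and the members at −0.31, 0.27 and 0.51.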

How the data were processed

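The authors deposited raw read counts per small RNA feature, 1 table per library with no normalization, from single-end 50 bp reads. Per the submitters' processing notes, cutadapt v4.6, Bowtie2 v2.3.5.1 and featureCounts v1.5.0 were used with hg38; the handling of reads matching several loci is not given in the sources used here. Library totals are given above. Coordinates are those of the tables, and RefSeq (GRCh38.p14) placed all 3 members at the same positions. Of the features, 5579 took their symbol from GENCODE v44lift37 through the Ensembl identifier, and 908 from a RefSeq gene at an identical position.

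Counts were filtered (filterByExpr, minimum count 10), scaled with TMM factors and tested with edgeR v4.0.16 under R v4.3.3, with Benjamini-Hochberg adjustment over all 1480 tested features. The SE was the size of the log2 fold change divided by the square root of F, and the biological coefficient of variation was 26.0%. The test was also run on simulated counts with planted changes larger than the estimates of the members. That run does not show how the test performs on changes of their size. Exact permutation tests used scipy v1.17.1. Alternatives included DESeq2 v1.42.0, other scaling and filters, the replicate number as a block and leaving out each library. Named genes were the members, up to 4 of the most abundant genes of each list, the 3 most alike miRNAs and the nearest feature of each member. MIR301B, MIR486-1 and the muscle markers MIR1-1, MIR1-2, MIR133A1, MIR133A2 and MIR206 were named after their values were seen. The members and lists were chosen with earlier results of these data known.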

Additional observations from a re-analysis of the deposited data

How the results depend on the processing

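Of 98 comparisons of a result with an alternative, 78 kept their direction and call, or moved by less than the replicate spread. The number of called features, 2 as reported, became 9 (5 higher and 4 lower) when scaled by library size only, 29 without a filter (7 and 22), 30 with DESeq2 (4 and 26), and 0 with factors from miRNAs alone or at an FDR below 0.01, where 143 and 152 features had an unadjusted edgeR p below 0.05. With the replicate number as a block it was 18 (5 and 13). Nothing in the labels pairs libraries by that number, and over features their deviations from the group means correlated at 0.095 within a number. Under that block the members stood at 0.29 (MIR148A), −0.31 (MIR148B) and 0.51 (MIR152), and none was called (smallest edgeR FDR 0.406). With library size alone the CPM difference was −955 for MIR148B, against −2333, and 199 for MIR152, against 146.

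Each library was left out in turn, with the lone library of a group assumed to vary like the other group. The number of called features then ran from 4 to 218, the highest without 52X WT replicate 2. The log2 fold change of MIR148A ran from −0.20 to 0.75, its CPM difference from −7219 to 46046, that of the family sum from −9543 to 43996, and the log2 difference of MIR152 to MIR148A from −0.20 to 0.65. For MIR152 to MIR148B it ran from 0.78 to 0.87. The cause was not tested. The lowest count of a member was 5015, for MIR152 in 52X WT replicate 1. The part of depth was not tested, and 2 libraries per group limit every test.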
